A study of Mus musculus with 12 samples.

Results

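The hearts compared here were infarcted hearts treated with prednisone and sham-operated hearts given vehicle, and the question was which transcripts still differed from an untreated sham heart after infarction plus prednisone. The members were taken from the sample labels: the 3 MI prednisone libraries and the 3 sham vehicle libraries, 6 of the 12 libraries of the series, with transcript values summed to genes. Each library was myocardial RNA from 1 male wild-type C57BL/6 mouse, about 10 weeks old when injections began and listed as about 16 weeks old in the sample description, and was prepared with a stranded mRNA kit. The MI prednisone mice had myocardial infarction (MI) surgery and, from 2 weeks after it, weekly intraperitoneal prednisone at 1 mg/kg at lights-on for 6 weeks. The sham vehicle mice had sham surgery and 6 weeks of weekly vehicle, and hearts of all groups were collected 24 hours after their final injection. Surgery and drug both differ between these groups, so their parts in a difference cannot be told apart from this comparison alone. The other libraries, 3 from sham hearts with prednisone and 3 from infarcted hearts with vehicle, are given beside it as values.

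After an infarct, dead muscle is replaced by a collagen-rich scar laid down by activated fibroblasts, while surviving cardiomyocytes return to fetal genes such as natriuretic peptides and the slow myosin heavy chain. Heart muscle normally burns mostly fatty acids, and sarcoplasmic reticulum calcium release and reuptake drive each beat. Prednisone is converted to prednisolone, which activates the glucocorticoid receptor, a nuclear receptor that also resets the molecular clock of peripheral tissues.

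Of 13158 genes tested, 1578 were called different at an adjusted p under 0.05 by limma, which here tests log2(TPM + 1) with Benjamini-Hochberg adjustment over all genes. TPM gives each transcript as a length-scaled share of its library. In MI prednisone hearts 472 genes (3.59%) were called higher and 1106 (8.41%) lower, and the median difference over all tested genes was -0.003. Most calls were small: 112 of the higher genes and 226 of the lower genes differed by 1 log2 unit or more. The highest and lowest values of the groups did not overlap in 5373 genes (40.8%). Among the calls this held for 471 of the 472 higher and 1104 of the 1106 lower genes, so a lack of overlap adds little to a call. Rescaling by median ratios, a choice that moved the median of all genes by less than 0.1, gave 1366 higher and 1612 lower calls, so the share of calls that were higher was 45.9% against 29.9%. The p-values measure the spread between these mice, and infarcted vehicle library 3, which stands apart from the other 11, enters the shared spread: without it 1265 genes were called higher and 2127 lower.

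The 3 MI prednisone libraries were not alike in how far they lay from sham. Among the 1106 genes called lower, library 3 had the highest of the 3 values, nearest to sham, in 957 (86.5%), against 30.3% of all tested genes. Among the 472 called higher it had the lowest value in 372 (78.8%), against 44.8% of all tested genes. Without MI prednisone library 1, 2 or 3 the test called 484, 518 and 2286 genes. Without sham vehicle library 1, 2 or 3 it called 843, 509 and 627. The mitochondrially encoded share of TPM moved the same way: it was 24.7%, 21.6% and 35.9% in MI prednisone libraries 1, 2 and 3 and 36.2%, 36.5% and 42.0% in sham vehicle. Its part in the gene results was not tested. Removing mitochondrial, nuclear-copy and globin rows and rescaling moved the median of all genes to -0.13 and gave 648 higher and 2671 lower calls.

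Several fetal and stress genes of cardiomyocytes were higher than in sham. Of the 20 tested, 8 were called higher, none lower and 12 not called, with a median difference of 0.92 on the log2 scale against -0.003 over all genes. *Nppb* (chr4:147985788-147987205 in GRCm38), which encodes the B-type natriuretic peptide released by stretched cardiomyocytes, had 85.2, 91.1 and 150 TPM in sham vehicle hearts 1 to 3 and 839, 706 and 713 TPM in MI prednisone hearts 1 to 3. All 3 treated infarct hearts lay far above the highest sham value. The difference was 2.82 ± 0.30 (SE) on the log2(TPM + 1) scale, with a limma adjusted p of 0.000706, and a ratio of group means of 6.92. Infarcted vehicle hearts had 389, 749 and 510 TPM.

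*Nppa*, the atrial natriuretic peptide, had 901, 1333 and 478 TPM in sham vehicle and 4251, 2870 and 2837 TPM in MI prednisone, a log2 difference of 1.97 (limma adjusted p = 0.00485). *Myh7*, the slow beta myosin heavy chain of the fetal ventricle, had 32.5, 38.8 and 37.8 TPM against 136, 154 and 101 TPM, a log2 difference of 1.80 (limma adjusted p = 0.00317). *Acta1*, skeletal alpha actin, had 86.9, 163 and 103 TPM against 496, 313 and 400 TPM, a log2 difference of 1.79 (limma adjusted p = 0.0039). The groups did not overlap for any of these genes, as the plot of infarction markers shows. The actins, and *Myh7* with *Myh6*, are near-identical paralogs whose shared reads may be split between them. *Rcan1*, a calcineurin regulator whose own transcription answers to calcineurin, rose from 26.1, 24.7 and 28.2 TPM to 93.3, 71.7 and 82.1 TPM (log2 difference 1.60, limma adjusted p = 0.0014). Within *Rcan1* the rise sat in 1 annotated transcript, at 5.02, 3.14 and 4.30 TPM in sham vehicle and 74.5, 58.5 and 58.4 TPM in MI prednisone, while the transcript that was most abundant in sham had 21.1, 21.6 and 24.0 TPM against 18.8, 13.2 and 23.7 TPM. The stress-induced secreted factor *Gdf15* was low in sham, at 0.507, 1.03 and 0.783 TPM, and had 11.5, 6.13 and 5.25 TPM in MI prednisone (log2 difference 2.23, limma adjusted p = 0.00452). *Ankrd1*, a stretch-responsive nuclear factor of cardiomyocytes, was also called higher, by 1.07 (limma adjusted p = 0.0104). Without MI prednisone library 3 the list had 11 higher calls, and without infarcted vehicle library 3 it had 12; its other leave-one-out counts were 6 or 7.

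**Figure D1:**
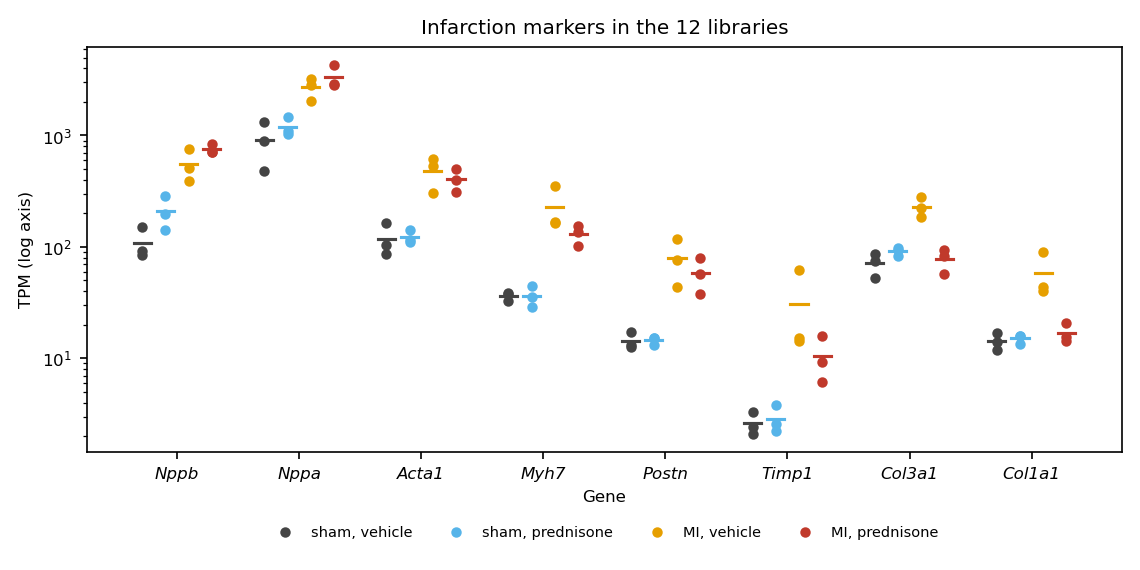
TPM on a log axis for 8 infarction markers in the 12 libraries. Points are single hearts and short lines are group means of 3; Nppb, Nppa, Acta1, Myh7 and Postn lay above sham vehicle in each of the 3 MI prednisone hearts, while the MI prednisone points for Col3a1 and Col1a1 overlap sham vehicle.

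The main scar collagens were not called. *Col1a1*, which encodes a chain of type I collagen, the main fibre of scar, had 13.9, 16.9 and 11.8 TPM in sham vehicle and 20.7, 15.7 and 14.4 TPM in MI prednisone. *Col3a1*, type III collagen, had 74.3, 86.1 and 52.7 TPM against 94.6, 82.2 and 57.5 TPM. The ranges overlapped for both. Neither passed the test: the log2 difference was 0.23 for *Col1a1* (95% interval -0.35 to 0.82, limma adjusted p = 0.612) and 0.13 for *Col3a1* (95% interval -0.35 to 0.62, limma adjusted p = 0.743). These intervals leave room for a change of either sign. Infarcted vehicle hearts had 40.1, 89.5 and 44.1 TPM of *Col1a1*, all above the 3 treated values.

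Other matrix genes were called. Of 45 matrix genes tested, 15 were called higher, none lower and 30 not called, with a median log2 difference of 0.44. *Postn*, periostin, a product of activated fibroblasts, had 12.6, 17.3 and 13.2 TPM in sham vehicle and 79.0, 57.5 and 37.9 TPM in MI prednisone (log2 difference 1.90, limma adjusted p = 0.00609). *Comp*, cartilage oligomeric matrix protein, had 4.70, 7.80 and 4.02 TPM against 53.0, 25.8 and 12.9 TPM (log2 difference 2.11, limma adjusted p = 0.0204). *Thbs4*, thrombospondin 4, had 1.27, 1.55 and 1.30 TPM against 11.8, 6.32 and 4.49 TPM (log2 difference 1.76, limma adjusted p = 0.00302). In each of these the groups were apart, and library 1 was highest and library 3 lowest among the treated infarct hearts.

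The same group held *Mfap4* (1.80), *Cilp* (1.66), *Sfrp2* (1.66), *Ltbp2* (1.29) and elastin, *Eln* (1.28), as log2 differences called by limma. *Adamtsl2*, a secreted glycoprotein that binds fibrillin microfibrils, had 2.06, 3.27 and 3.12 TPM in sham and 28.6, 19.9 and 11.2 TPM in MI prednisone (log2 difference 2.38, limma adjusted p = 0.00256). Its difference was 0.99 (limma adjusted p = 0.0413) when transcripts of non-coding classes were left out. *Serpinh1*, the collagen chaperone, was called higher by 0.79 (limma adjusted p = 0.0103). *Timp1*, an inhibitor of matrix metalloproteinases, had 2.44, 3.29 and 2.10 TPM in sham and 15.9, 9.25 and 6.19 TPM in MI prednisone, groups that did not overlap, and missed the threshold at a log2 difference of 1.59 (95% interval 0.53 to 2.65, limma adjusted p = 0.0551). The matrix count was 8 without MI prednisone library 1 or 2 or sham vehicle library 1 or 3, 10 without sham vehicle library 2 and 19 without MI prednisone library 3. *Comp* lost its call without MI prednisone library 1 or 2 or sham vehicle library 1 or 3 (highest limma adjusted p = 0.0845), and *Sfrp2* and *Ltbp2* lost theirs when any of the 6 libraries other than MI prednisone library 3 was left out.

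Of 11 markers of activated scar fibroblasts, 5 were called higher and none lower. Their summed level was 127.8 to 250.6 TPM in MI prednisone against 78.7 to 100.5 TPM in sham vehicle. That list shares the called *Postn*, *Comp*, *Cilp* and *Thbs4* with the matrix list, and also *Fmod* (-0.07, not called). Its count is therefore not separate from the matrix count, and *Meox1* was its only call outside the shared genes. Of 12 general fibroblast markers 1 was called higher, *Pi16* (1.03, limma adjusted p = 0.0189, a call lost without MI prednisone library 1 or 2 or sham vehicle library 1 or 3), and the summed level of 972.6 to 1604 TPM overlapped the 1086 to 1385 TPM of sham. The part of fibroblast content in the matrix result was not tested. In bulk tissue, a change in the number of cells of a type and a change in RNA per cell cannot be told apart.

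Many genes of fatty acid use were lower in MI prednisone. Of 33 fatty acid uptake and oxidation genes, 19 were called lower and none higher (1 was higher at an unadjusted p under 0.05), with a median log2 difference of -0.37. *Cd36* (chr5:17781690-17888801 in GRCm38), the main fatty acid transporter of the cardiomyocyte membrane, had 586, 664 and 607 TPM in sham vehicle and 265, 210 and 363 TPM in MI prednisone. Every treated infarct heart was below every sham heart, with a log2 difference of -1.18 ± 0.16 (SE; limma adjusted p = 0.00207). *Ucp3*, a mitochondrial carrier induced by fatty acids, had 52.5, 45.0 and 28.0 TPM against 7.39, 8.68 and 10.6 TPM (log2 difference -2.08, limma adjusted p = 0.00262). *Acsl1*, which activates long-chain fatty acids to their CoA esters, had 226, 252 and 227 TPM against 92.5, 95.5 and 146 TPM (log2 difference -1.10, limma adjusted p = 0.00268). The groups were apart for these 3 genes, with library 3 the closest to sham.

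The beta-oxidation enzyme *Acadm* was called lower at -0.91 on the log2 scale (limma adjusted p = 0.00314). *Cpt1b*, the muscle carnitine palmitoyltransferase, was called lower at -0.51 (limma adjusted p = 0.0162). *Ppargc1a*, the coactivator that promotes mitochondrial gene expression, had 14.2, 15.4 and 18.3 TPM in sham and 5.00, 4.39 and 8.08 TPM in MI prednisone (log2 difference -1.34, limma adjusted p = 0.00256). Its most abundant transcript, a coding one of 6464 bases, had 7.61, 7.58 and 8.44 TPM against 4.90, 4.20 and 7.67 TPM, an overlap. With that transcript in place of the sum, *Ppargc1a* was not called. Between 8 and 11 fatty acid genes were called lower when 1 of the 6 libraries was left out, except 19 without MI prednisone library 3. Both median-ratio rescaling and the length correction gave 9 lower calls, the latter among the 30 members with a length.

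Of 28 pyruvate and citrate cycle genes, 13 were called lower and none higher (2 were higher at an unadjusted p under 0.05), with a median log2 difference of -0.37. *Pdpr*, the regulatory subunit of pyruvate dehydrogenase phosphatase, was not on that list but was among the 15 deepest falls of the whole table, at 20.6, 26.6 and 25.0 TPM against 2.77, 2.40 and 8.04 TPM (log2 difference -2.36, limma adjusted p = 0.00159). The catalytic subunits of the same phosphatase were lower too: *Pdp1* at -0.93 (limma adjusted p = 0.00261) and *Pdp2* at -1.11 (limma adjusted p = 0.00206). *Dld*, the shared dihydrolipoamide dehydrogenase, fell from 149, 148 and 151 TPM to 92.1, 83.9 and 112 TPM (log2 difference -0.64, limma adjusted p = 0.00405). The mitochondrial pyruvate carrier genes were not called, with log2 differences of 0.17 for *Mpc1* (95% interval -0.05 to 0.38) and 0.31 for *Mpc2* (95% interval 0.07 to 0.55). The list had 4 lower calls without MI prednisone library 1 or 2 or sham vehicle library 2, 6 without sham vehicle library 3 and 18 without MI prednisone library 3.

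Glycolysis and glucose uptake genes went both ways, 5 higher and 5 lower of 29 tested. *Hk2*, a hexokinase, was called higher by 0.64 (limma adjusted p = 0.0171) and *Pgam1*, a phosphoglycerate mutase, by 0.93 (limma adjusted p = 0.0119). The insulin-responsive glucose transporter *Slc2a4* was called lower at -0.55 (limma adjusted p = 0.0148) and the insulin receptor *Insr* at -0.79 (limma adjusted p = 0.00658). Each of these counts was 4 or fewer without any 1 of the 6 libraries other than MI prednisone library 3.

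*Nampt*, the rate-limiting enzyme of NAD salvage, had 42.5, 47.6 and 43.4 TPM in sham and 22.4, 22.1 and 28.6 TPM in MI prednisone (log2 difference -0.85, limma adjusted p = 0.00261). With *Nadk2*, *Slc25a51* and *Nnt* it made up the 4 lower calls among 18 NAD genes, none of which was called higher. *Nadk2* and *Nnt* act on mitochondrial NADP, and *Slc25a51* carries NAD into mitochondria. The call of *Nnt* was lost without MI prednisone library 1 or 2 or sham vehicle library 2 or 3, and under median-ratio rescaling and the length correction.

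Respiratory chain genes were called in both directions. Of 75 nuclear-encoded oxidative phosphorylation genes, 9 were called higher and 4 lower, and 59 had a positive difference. Over all tested genes 3.59% were called higher and 8.41% lower, so lower calls were no more frequent in this list than elsewhere. *Cox5b*, a small subunit of cytochrome c oxidase, had 1341, 1226 and 1328 TPM in sham and 1808, 2342 and 1852 TPM in MI prednisone (log2 difference 0.61, limma adjusted p = 0.00839). Its 362-base processed transcript had 678, 454 and 588 TPM in sham and 997, 1388 and 1116 TPM in MI prednisone. The 865-base coding transcript had 635, 740 and 713 TPM against 772, 905 and 698 TPM, an overlap. The *Cox5b* call was lost when transcripts of non-coding classes were left out. *Sdha*, the flavoprotein of succinate dehydrogenase, had 465, 479 and 486 TPM against 276, 300 and 368 TPM (log2 difference -0.61, limma adjusted p = 0.00669). All 9 higher genes were among the 50 whose transcripts averaged under 1000 bases, of which 49 were positive, and all 4 lower genes were among the 19 longer ones, of which 5 were positive. The length correction described below could be made for 69 of the 75. None of these was then called higher and 1 was called lower, with a median of 0.01. The higher count was 1 or 2 without any 1 of the 6 libraries other than MI prednisone library 3, 39 without that library, and 17 without infarcted vehicle library 3. The lower count was 2 without MI prednisone library 1.

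Among the 13 protein genes of the mitochondrial genome, 4 were called lower and none higher. *mt-Nd5*, a subunit of complex I, had 10810, 10990 and 12870 TPM in sham and 2500, 3001 and 5475 TPM in MI prednisone (log2 difference -1.74, limma adjusted p = 0.00283). Its groups were far apart, while the calls of *mt-Nd2*, *mt-Nd4l* and *mt-Co1* were lost when either MI prednisone library 1 or 2 was left out. Rows for nuclear copies of mitochondrial sequence held 17.7%, 20.3% and 15.3% of TPM in MI prednisone and 12.3%, 10.6% and 13.0% in sham vehicle. Such copies share reads with the mitochondrial genes, so the split between them is uncertain.

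Many calcium handling and ion channel genes were lower: 14 of 31 were called lower and 1, *S100a1* (0.49), higher, with a median log2 difference of -0.48. *Slc8a1* (chr17:81373105-81738377 in GRCm38), the sodium-calcium exchanger that removes calcium from the cardiomyocyte, had 42.2, 54.0 and 49.6 TPM in sham vehicle and 7.73, 5.45 and 21.2 TPM in MI prednisone. All treated infarct hearts were below sham, and hearts 1 and 2 were much lower than heart 3. The difference was -2.20 ± 0.34 (SE) on the log2(TPM + 1) scale (limma adjusted p = 0.00363). Infarcted vehicle hearts had 46.8, 54.9 and 43.4 TPM, and sham prednisone hearts 55.2, 54.2 and 50.1 TPM.

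*Atp2a2*, the SERCA2 pump that returns calcium to the sarcoplasmic reticulum, had 2382, 2651 and 2731 TPM in sham and 1144, 926 and 1752 TPM in MI prednisone (log2 difference -1.07, limma adjusted p = 0.00715). *Ryr2*, the calcium release channel, had 62.6, 77.0 and 64.1 TPM against 25.0, 23.1 and 42.6 TPM (log2 difference -1.19, limma adjusted p = 0.00693). *Pln*, phospholamban, which inhibits SERCA2, was lower at -0.77 (limma adjusted p = 0.0158), a call lost without MI prednisone library 1 or 2 or sham vehicle library 2 or 3. Further members called lower included the L-type channel subunits *Cacna2d1* (-1.12) and *Cacnb2* (-0.99), the kinase *Camk2d* (-0.93) and the potassium channel *Kcnd2* (-1.27). *Kcnip2*, the auxiliary subunit of the transient outward current, missed the threshold at -0.48 (95% interval -0.80 to -0.15, limma adjusted p = 0.0608). After the length correction 6 members were called lower, and *Atp2a2* was at -0.88 (limma adjusted p = 0.0531). The list had 7 or 8 lower calls without MI prednisone library 1 or 2 or sham vehicle library 2 or 3, and 21 without MI prednisone library 3 or infarcted vehicle library 3.

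Sarcomere genes showed no common shift, with 2 higher, 2 lower and a median that rounded to 0 among 26. The 2 higher calls, *Des* and *Tnnc1*, were lost under median-ratio rescaling and without any 1 of the 6 libraries other than MI prednisone library 3, and there were 8 lower calls without that library and 7 without infarcted vehicle library 3. *Nebl*, the Z-disc protein nebulette, had 77.6, 85.2 and 82.3 TPM in sham and 23.3, 20.5 and 41.3 TPM in MI prednisone (log2 difference -1.56, limma adjusted p = 0.00177). *Tcap*, telethonin of the Z-disc, had 1825, 1789 and 1874 TPM against 672, 814 and 565 TPM (log2 difference -1.43, limma adjusted p = 0.000368). *Myh6*, the fast alpha myosin of the adult mouse ventricle, was not called, with a log2 difference of -0.27 (95% interval -0.55 to 0.01). Of 10 cardiomyocyte markers 2 were called lower, *Ryr2* and *Pln*, and their summed level of 45370 to 48600 TPM in MI prednisone overlapped the 43010 to 45760 TPM of sham.

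The genes with the largest infarct response in untreated animals were set beside these values. Infarcted vehicle against sham vehicle, which shares the 3 sham vehicle libraries, had 15.1% of genes called higher and 0.904% lower. Among its 10 largest rises, *Comp* had a log2 difference of 3.72 there and 2.11 in MI prednisone against sham, *Sfrp2* 3.59 and 1.66, *Cilp* 3.27 and 1.66, and *Thbs4* 2.94 and 1.76. *Saa3*, an acute-phase apolipoprotein, had 2.94 and 1.65 (limma adjusted p = 0.124 in MI prednisone), and *Angptl7*, a secreted angiopoietin-like protein, 2.90 and 1.21 (limma adjusted p = 0.0945). Those 2 and *Timp1* were the members of the 10 not called in MI prednisone against sham. Among its 10 deepest falls, *Adra1b*, the alpha-1B adrenergic receptor, had -0.84 there and -1.15 in MI prednisone, and *Acot1*, a cytosolic acyl-CoA thioesterase, -0.94 and -0.73. *Lgals4* and *Phkg1*, at 0.13 and -0.35, were the 2 not called in MI prednisone against sham. Of the other 8, *Apbb1* and *Tmod4* lost the call without any 1 of the 6 libraries, *Acot1* without any 1 other than MI prednisone library 2, *Adra1b* without MI prednisone library 1 or sham vehicle library 2, and *Ttll1* without MI prednisone library 1 or sham vehicle library 3.

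**Figure D2:**
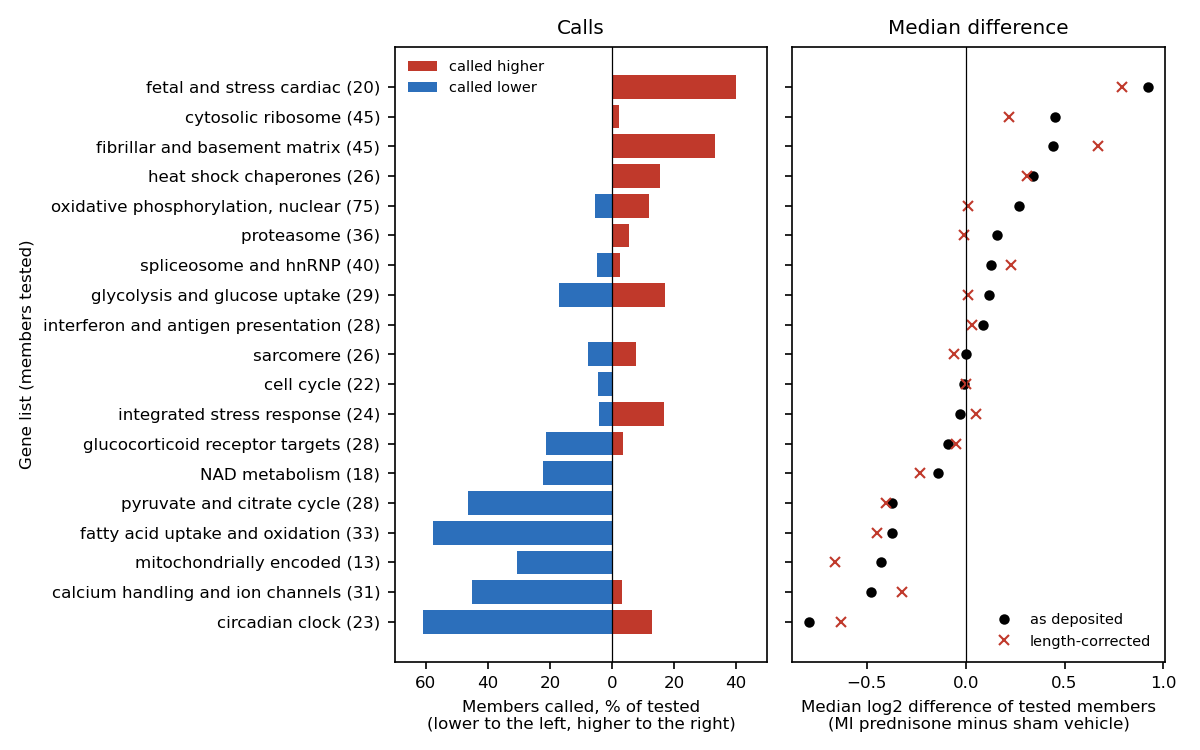
Left, the percentage of tested members of 19 gene lists called higher (right of 0) or lower (left of 0) in MI prednisone against sham vehicle; right, the median log2 difference of the tested members, as deposited (dots) and after the length correction (crosses, members with a length only). Circadian clock and fatty acid lists have the largest shares called lower, and the oxidative phosphorylation median moves from 0.27 to 0.01 with the correction.

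Other large falls lay outside these lists. *Nt5c1a*, a cytosolic 5'-nucleotidase that makes adenosine from AMP, had 11.6, 15.5 and 12.8 TPM in sham and 0.570, 0.321 and 4.26 TPM in MI prednisone (log2 difference -2.68, limma adjusted p = 0.00293). *Gpam*, which starts triglyceride synthesis in mitochondria, had 48.9, 54.8 and 44.7 TPM against 7.06, 5.77 and 14.5 TPM (log2 difference -2.41, limma adjusted p = 0.000654). *Hipk2*, a nuclear kinase, had 11.4, 15.4 and 11.5 TPM against 1.46, 1.82 and 4.39 TPM (log2 difference -2.03, limma adjusted p = 0.00141). These 3 were named from calls without overlap, so the separation of their groups follows from that rule. MI prednisone heart 3 was again nearest to sham, as in 86.5% of the genes called lower.

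*Pakap* (-2.15), *Scn4a* (-1.88), *Fyco1* (-1.85), *Foxn3* (-1.79) and *Klhl38* (-1.78) complete the 15 deepest falls with the clock genes described below. In sham prednisone against sham vehicle the log2 differences were 0.08 for *Nt5c1a*, -0.25 for *Gpam*, 0.03 for *Pdpr*, 0.13 for *Slc8a1* and 0.17 for *Hipk2*, none of them called; in that comparison 7 genes (0.0532%) were called higher and 8 (0.0608%) lower. In infarcted vehicle against sham vehicle they were -0.43, -0.21, -0.21, -0.01 and 0.02, likewise not called. All 15 deepest falls, and 13 of the 15 largest rises, kept their call whichever of the 6 libraries was left out; the exceptions were *Comp* and *Wisp2*.

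The remaining largest rises included *Nupr1*, a stress-induced nuclear protein, with 9.18, 10.9 and 6.31 TPM in sham and 30.8, 61.6 and 23.0 TPM in MI prednisone (log2 difference 1.92, limma adjusted p = 0.00799). *Tnfrsf12a*, the receptor for the cytokine TWEAK, had 20.4, 20.8 and 26.1 TPM against 81.5, 72.7 and 71.6 TPM (log2 difference 1.71, limma adjusted p = 0.00242). *Wisp2*, a secreted matricellular protein, differed by 1.81 (limma adjusted p = 0.0178), a call lost when any of the 6 libraries other than MI prednisone library 3 was left out. *Spon2*, a secreted matrix protein, differed by 1.78 (limma adjusted p = 0.00261) but by 0.44 (limma adjusted p = 0.176) once transcripts of non-coding classes were left out. Calls without overlap and averaging 5 TPM or more numbered 378 higher and 896 lower. Of these, 23 and 26 had predicted, ribosomal or mitochondrial symbols, which were kept out of the 15 largest rises and 15 deepest falls.

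Most circadian clock genes differed from sham, and 1 of them, *Dbp*, had the smallest adjusted p of the table. In this clock the BMAL1 and CLOCK proteins switch on E-box genes, among them the *Per* and *Cry* repressors, *Nr1d1*, *Nr1d2*, *Dbp* and *Tef*. The NR1D (REV-ERB) proteins repress *Arntl*, which encodes BMAL1, and *Nfil3* through ROR elements, and DBP, TEF and HLF compete with NFIL3 at D-boxes. Of 23 clock genes tested, 14 were called lower, 3 higher and 6 not called, with a median log2 difference of -0.79. The count of lower calls stayed between 11 and 15 without any 1 of the 6 libraries.

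*Dbp* (chr7:45705088-45710203 in GRCm38) had 75.2, 82.8 and 86.5 TPM in sham vehicle and 5.93, 5.95 and 4.84 TPM in MI prednisone. The treated infarct hearts lay close together at 6.84% of the sham mean. The log2 difference of -3.65 ± 0.13 (SE) was the deepest fall by the naming rule (limma adjusted p = 1.69e-07). *Nr1d1*, REV-ERB alpha, which overlaps *Thra* on the opposite strand, had 44.1, 45.6 and 34.3 TPM against 8.61, 9.80 and 11.1 TPM (log2 difference -1.96, limma adjusted p = 2.65e-05). *Nr1d2*, REV-ERB beta, had 23.7, 26.1 and 27.3 TPM against 5.34, 4.88 and 6.13 TPM (log2 difference -2.05, limma adjusted p = 1.19e-05). *Tef* had 52.4, 65.9 and 58.4 TPM against 24.5, 29.8 and 24.4 TPM (log2 difference -1.14, limma adjusted p = 0.000706). For each of these 4 genes the groups were far apart and the 3 treated infarct hearts lay close together.

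The deubiquitinase gene *Usp2*, a clock output, was lower at -1.87 (limma adjusted p = 8.89e-05) and *Hlf* at -1.77 (limma adjusted p = 0.000975). *Per1* had 11.2, 16.6 and 15.8 TPM in sham and 3.23, 5.96 and 6.22 TPM in MI prednisone (log2 difference -1.37, limma adjusted p = 0.0261). The fall of *Per2* was -0.75 (limma adjusted p = 0.0221), and neither *Per* call held when MI prednisone library 1 or sham vehicle library 2 or 3 was left out, nor that of *Per1* without MI prednisone library 2. The D-box repressor *Nfil3* went the other way, from 2.65, 2.53 and 2.39 TPM to 12.5, 12.2 and 10.9 TPM (log2 difference 1.87, limma adjusted p = 2.24e-05). *Arntl* had 1.87, 2.40 and 1.46 TPM in sham and 7.47, 8.65 and 8.45 TPM in MI prednisone (log2 difference 1.67, limma adjusted p = 0.0045). The third higher call was *Npas2*, a partner of BMAL1, at 0.87 (limma adjusted p = 0.0123).

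Sham hearts that received prednisone also had low *Dbp* and *Nr1d1* and high *Nfil3*. Sham prednisone hearts 1 to 3 had 7.73, 6.61 and 5.45 TPM of *Dbp*, 12.9, 14.2 and 12 TPM of *Nr1d1* and 9.42, 10.9 and 12 TPM of *Nfil3*. Infarcted vehicle hearts had 70.2, 72.1 and 81.9 TPM of *Dbp*, within or just below the sham vehicle range. MI prednisone against sham prednisone gave a *Dbp* log2 difference of -0.20 (95% interval -0.49 to 0.09, limma adjusted p = 0.338). In that comparison 2.73% of genes were called higher and 14.1% lower, and *Nr1d2* was among the latter, at -0.95 (limma adjusted p = 0.00158). *Tcap* had 673, 587 and 621 TPM in sham prednisone, and its log2 difference there was 0.11 (95% interval -0.18 to 0.40). By the protocol all tissue was taken at the same interval after injection. These values therefore describe 1 time of day only if vehicle was also given at lights-on, which was not tested.

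**Figure D3:**
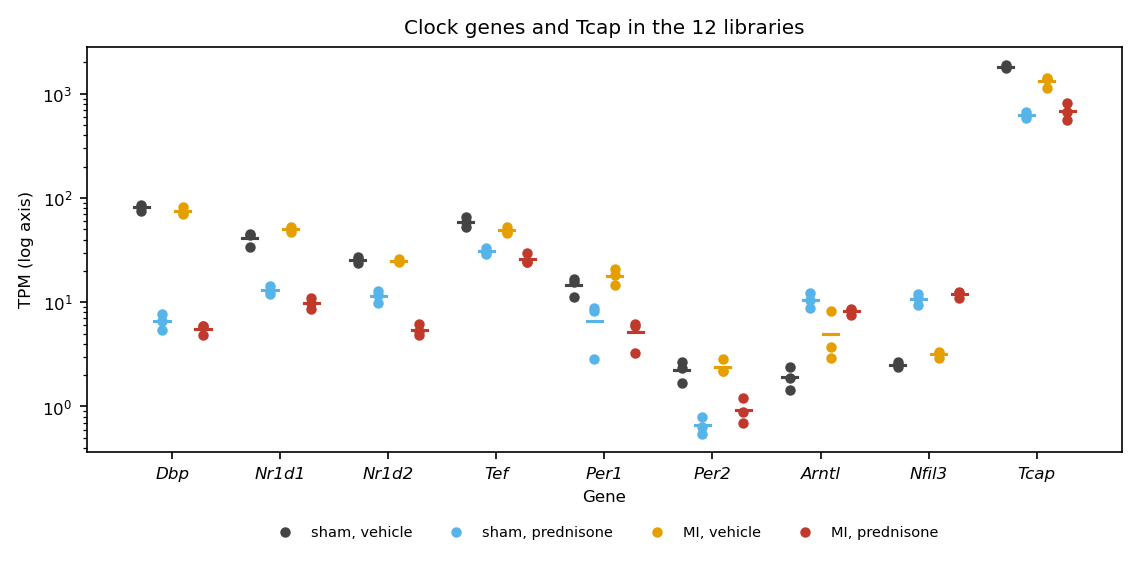
TPM on a log axis for 8 clock genes and Tcap in the 12 libraries, with points for hearts and short lines for means of 3. Both prednisone groups sit below both vehicle groups for Dbp, Nr1d1 and Nr1d2, and above them for Nfil3.

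Promoter sequences are shown for 6 clock genes that were called and held a searched motif, because the members that moved in opposite directions are known targets of different clock elements. *Bhlhe41*, also called lower, held an E-box and is not shown, and *Cry1*, which held one too, was not called. The windows of *Dbp*, *Nr1d1*, *Nr1d2*, *Usp2*, *Hlf*, *Rora*, *Cry2* and *Npas2*, all called, held none of the searched motifs. The windows are from RefSeq (GRCm38.p6) and run from 250 bases before to 50 bases after an annotated start, 5′ to 3′ on the gene's strand. *Ciart* (chr3:95882179-95882478, minus strand), *Per1* (chr11:69098699-69098998, plus strand) and *Tef* (chr15:81811164-81811463, plus strand) hold the E-box CACGTG. *Per3* (chr4:151044616-151044915, minus strand) holds the D-box TTATGTAA at 2 places. *Arntl* (chr7:113207261-113207560, plus strand) and *Nfil3* (chr13:52980990-52981289, minus strand) hold the ROR element TAGGTCA, in *Nfil3* as its reverse complement TGACCTA. Capitals mark these matches. Another window of *Arntl* (chr7:113207215-113207514) and another of *Per1* (chr11:69099902-69100201) held none of the searched motifs and are not shown. A further *Tef* window (chr15:81802423-81802722), also not shown, held an E-box.

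Ciart: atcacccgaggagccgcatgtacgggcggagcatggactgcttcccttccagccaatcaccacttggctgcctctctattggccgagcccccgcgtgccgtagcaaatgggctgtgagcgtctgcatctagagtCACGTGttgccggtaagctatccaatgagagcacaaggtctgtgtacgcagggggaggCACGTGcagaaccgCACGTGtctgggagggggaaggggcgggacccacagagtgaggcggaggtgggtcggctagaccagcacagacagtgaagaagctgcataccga
Per1: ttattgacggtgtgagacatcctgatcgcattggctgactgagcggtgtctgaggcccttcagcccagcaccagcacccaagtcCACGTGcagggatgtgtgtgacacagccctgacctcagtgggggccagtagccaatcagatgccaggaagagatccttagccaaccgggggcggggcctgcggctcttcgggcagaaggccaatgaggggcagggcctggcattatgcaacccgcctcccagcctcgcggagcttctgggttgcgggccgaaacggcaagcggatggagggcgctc
Tef: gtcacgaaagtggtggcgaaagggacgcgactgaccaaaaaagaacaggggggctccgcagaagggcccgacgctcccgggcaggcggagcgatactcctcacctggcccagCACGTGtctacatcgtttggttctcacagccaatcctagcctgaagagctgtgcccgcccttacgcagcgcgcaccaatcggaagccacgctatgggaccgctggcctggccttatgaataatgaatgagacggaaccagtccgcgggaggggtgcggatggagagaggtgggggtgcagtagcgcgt
Per3: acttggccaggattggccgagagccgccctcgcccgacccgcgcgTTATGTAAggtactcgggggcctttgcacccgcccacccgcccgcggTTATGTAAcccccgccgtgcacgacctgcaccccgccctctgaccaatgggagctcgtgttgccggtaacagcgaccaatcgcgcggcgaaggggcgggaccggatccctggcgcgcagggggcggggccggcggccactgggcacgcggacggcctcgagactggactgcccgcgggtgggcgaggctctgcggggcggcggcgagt
Arntl: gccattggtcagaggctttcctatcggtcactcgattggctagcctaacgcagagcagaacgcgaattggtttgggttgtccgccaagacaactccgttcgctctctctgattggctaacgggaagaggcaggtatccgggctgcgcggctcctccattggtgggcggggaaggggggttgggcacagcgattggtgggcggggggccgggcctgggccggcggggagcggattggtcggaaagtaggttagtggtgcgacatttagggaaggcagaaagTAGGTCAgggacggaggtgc
Nfil3: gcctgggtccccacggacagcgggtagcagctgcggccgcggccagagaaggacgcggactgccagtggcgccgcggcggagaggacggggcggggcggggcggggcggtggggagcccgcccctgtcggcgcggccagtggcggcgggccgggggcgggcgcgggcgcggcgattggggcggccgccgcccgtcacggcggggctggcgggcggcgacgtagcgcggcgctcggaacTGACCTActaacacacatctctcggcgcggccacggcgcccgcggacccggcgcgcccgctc

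Across 27 windows of 19 clock genes, 6 held CACGTG, against 7.15% of all 32851 promoter windows. The D-box, searched as TTATGTAA or TTACGTAA, was in 1 of the 27 and in 1.06% of all. The ROR element, searched as TAGGTCA or TGGGTCA, was in 2 of the 27 and in 6.45% of all. The glucocorticoid response element, searched as ACANNNTGT with a G 2 positions before it and a C 2 positions after it, was in none of the 27 and in 0.475% of all. Each motif was searched on both strands, and no motif is contained in another. *Ciart*, with 3 E-boxes, had 5.70, 6.78 and 13.5 TPM in sham vehicle and 2.40, 2.45 and 2.39 TPM in MI prednisone (log2 difference -1.42, limma adjusted p = 0.0123). *Per3* had 4.28, 4.45 and 4.71 TPM against 1.40, 2.49 and 1.09 TPM (log2 difference -1.08, limma adjusted p = 0.00658).

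Known glucocorticoid receptor targets were not higher as a group 24 hours after the last dose. Of 28 tested, 1 was called higher and 6 lower, with a median log2 difference of -0.09. *Fkbp5*, a cochaperone of the receptor and a standard readout of its activity, had 3.50, 5.51 and 4.73 TPM in sham vehicle and 3.81, 3.46 and 4.23 TPM in MI prednisone, an overlap with a log2 difference of -0.19 (95% interval -1.13 to 0.75). *Tsc22d3*, which encodes GILZ, had a log2 difference of 0.01 (95% interval -0.51 to 0.53). *Klf9*, a zinc-finger regulator, had 30.0, 37.0 and 38.2 TPM against 8.18, 7.11 and 16.1 TPM (log2 difference -1.73, limma adjusted p = 0.00243). *Klf15* (-0.86), *Zbtb16* (-1.18), *Foxo3* (-0.83) and *Pik3r1* (-0.84) were called lower too, as was *Per1*. *Cdkn1a*, the cell cycle inhibitor p21, had 6.74, 9.20 and 9.21 TPM in sham and 20.4, 20.9 and 27.5 TPM in MI prednisone (log2 difference 1.35, limma adjusted p = 0.00658). *Pdk4*, a kinase that shuts pyruvate dehydrogenase, was not called at -1.25 (95% interval -2.11 to -0.38, limma adjusted p = 0.0631). The count of lower calls was 2 or 3 without MI prednisone library 1 or 2 or sham vehicle library 2, and 4 without sham vehicle library 3.

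Chaperone and stress response genes included few calls. Of 26 heat shock chaperones 4 were called higher and none lower, with a median log2 difference of 0.34 and 23 positive values. *Hspb1*, a small heat shock protein, had 150, 176 and 193 TPM in sham and 337, 277 and 258 TPM in MI prednisone (log2 difference 0.74, limma adjusted p = 0.0119). *Hsph1* was called at 1.27 (limma adjusted p = 0.00999) and stood at 0.56 (limma adjusted p = 0.114) without non-coding classes of transcript. In the integrated stress response list 4 of 24 were higher, *Atf4* (0.76), *Atf5* (0.67), *Ddit3* (0.72) and *Gdf15*, and *Vldlr* was lower (-1.14). *Atf4* and *Atf5* lost their calls when any of the 6 libraries other than MI prednisone library 3 was left out, and the list then had 1 higher call. The chaperone list had 1 or 2 higher calls in those same fits, 10 under median-ratio rescaling and 14 without infarcted vehicle library 3.

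Protein synthesis and turnover genes were largely uncalled: 1 of 45 cytosolic ribosome genes was higher (*Rpl24*, 0.55, limma adjusted p = 0.0422), 2 of 36 proteasome genes were higher and none of either list was lower. The ribosomal median was nevertheless 0.45, with 43 positive values, and 26 of the 45 were called higher under median-ratio rescaling. It was 0.22 after the length correction, over the 41 members with a length. No gene of either list was called when any of the 6 libraries other than MI prednisone library 3 was left out. Of 40 spliceosome genes, the cardiac splicing regulators *Rbm20* (-0.62, limma adjusted p = 0.0294) and *Rbm24* (-0.72, limma adjusted p = 0.0178) were lower and *Son* (0.80, limma adjusted p = 0.022) was higher. These 3 calls were lost without MI prednisone library 1 or 2.

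Immune genes were mostly uncalled against sham. None of the 28 interferon and antigen presentation genes was called by limma in either direction, and the same holds for 13 lymphocyte markers; at an unadjusted p under 0.05, 3 of the former were higher and none of the latter was called. Of 22 macrophage markers, *Lgals3* (galectin 3) and *Gpnmb*, both linked to phagocytes that handle debris, were called higher. *Lgals3* had 9.93, 11 and 5.72 TPM in sham and 25.3, 37.0 and 19.5 TPM in MI prednisone (log2 difference 1.51, limma adjusted p = 0.0295), a call lost when any of the 6 libraries other than MI prednisone library 3 was left out. *Gpnmb* differed by 0.88 (limma adjusted p = 0.0378) and lost its call without any 1 of the 6. The summed macrophage level of 406.8 to 715.3 TPM overlapped the 362.8 to 508.8 TPM of sham. Of 5 neutrophil markers that passed the filter, *Csf3r* was higher (0.91, limma adjusted p = 0.0386), another call lost in each leave-one-out fit, and 3 of the 5 were higher at an unadjusted p under 0.05. The summed neutrophil level was 34.0 to 166 TPM in MI prednisone and 6.09 to 23.1 TPM in sham, ranges that did not overlap, and its part in the other results was not tested. The 166 TPM of 1 library came mostly from 1 marker that was not called. In MI prednisone the most abundant transcripts of *S100a8*, *S100a9*, *Csf3r* and *Retnlg* reached at most 12.5, 14.5, 1.74 and 1.99 TPM. Of 22 cell cycle genes, *Cenpf* alone was called, and it was lower (-1.28, limma adjusted p = 0.00742).

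Vessel markers were partly higher. Of 17 endothelial markers 5 were called higher and none lower, and of 12 smooth muscle and pericyte markers 1, *Cspg4*, was higher and 1, *Abcc9* (-1.22), lower. *Cldn5*, the endothelial claudin, had 13.8, 14.0 and 10.4 TPM in sham and 35.7, 33.7 and 22.7 TPM in MI prednisone (log2 difference 1.19, limma adjusted p = 0.0138). *Egfl7* was higher by 1.09 (limma adjusted p = 0.0106), and *Vwf*, von Willebrand factor, by 1.20 (limma adjusted p = 0.01) when all its transcripts were summed. The 5 endothelial calls fell to 0 without MI prednisone library 1, 2 without library 2 and 3 without any sham vehicle library. The brown fat gene *Ucp1* had 12.4, 88.7 and 27.9 TPM in MI prednisone and 7.50, 7.97 and 0.714 TPM in sham. The summed level of 10 adipocyte markers was 1087 to 2681 TPM against 631.1 to 1195 TPM, ranges that overlapped. No marker was called (at an unadjusted p under 0.05, 1 was higher and 1 lower). That sum includes *Fabp4*, which is also on the endothelial list. Its main transcript had 929, 1569 and 720 TPM in MI prednisone and 676, 747 and 552 TPM in sham. Atrial markers summed to 4836 to 6724 TPM against 1179 to 2905 TPM, which includes *Nppa*, the 1 of 9 called; *Sln*, sarcolipin, was not called at 1.24 (95% interval -0.06 to 2.55). Of 10 mesothelial markers 1 was lower, *Lrrn4* (-1.25, limma adjusted p = 0.0374), a call lost without any 1 of the 6 libraries other than sham vehicle library 3. No marker was called by limma among 8 erythroid and 6 Schwann cell genes (1 and 0 at an unadjusted p under 0.05), and among 6 skeletal muscle genes the 1 call was *Acta1*. The part of the dissected region and of attached tissue in these results was not tested.

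The differences varied with transcript length. Across the 11894 tested genes with a length in GENCODE M21 (90.4%), Spearman's rho between the log2 difference and the TPM-weighted transcript length was -0.39, a description across genes, which are not independent replicates. In genes under 1000 bases the median log2 difference was 0.27, with 8.39% called higher and 2.0% lower. From 1000 to 2000 bases it was 0.14, with 4.55% higher and 4.23% lower. From 2000 to 4000 bases it was -0.06, with 2.17% higher and 9.21% lower. From 4000 to 8000 bases it was -0.25, with 1.92% higher and 17.2% lower, and in the 175 genes of 8000 bases or more it was -0.45, with 0.571% higher and 30.3% lower. For single libraries, each set against the mean of the sham vehicle libraries without itself, rho was -0.38, -0.40 and -0.25 in MI prednisone 1 to 3 and lay between -0.12 and 0.24 in the other 9. A per-library loess correction for length gave 689 higher and 822 lower calls, so 45.6% of its calls were higher. Of its 1511 calls, 890 were shared with the uncorrected test.

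**Figure D4:**
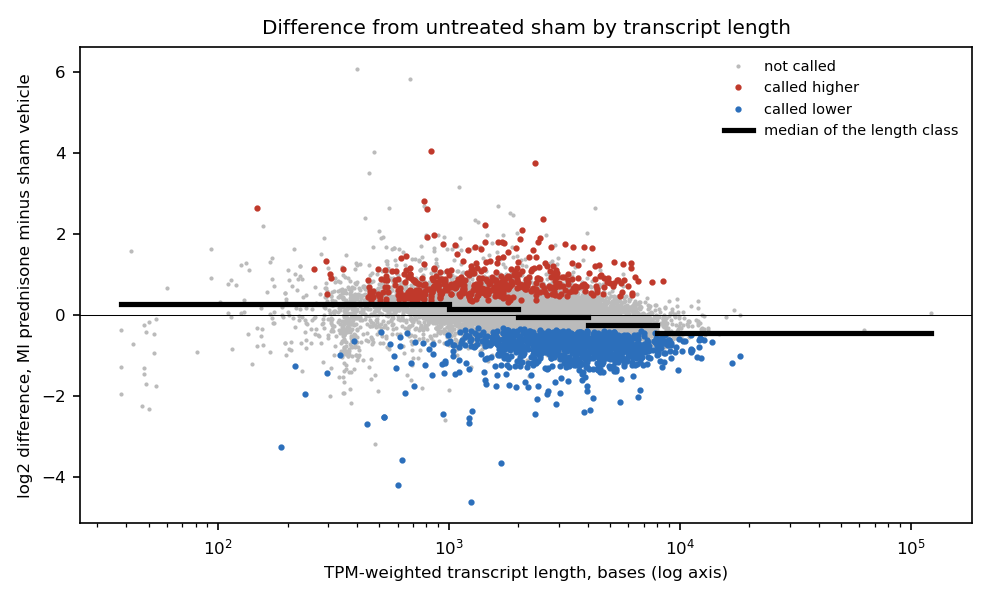
Log2 difference of each tested gene with a known length against its TPM-weighted transcript length on a log axis; red and blue points are genes called higher and lower, grey points were not called, and black lines are the medians of 5 length classes. The medians step down from 0.27 below 1000 bases to -0.45 at 8000 bases and above.

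Within the lists, the matrix median rose from 0.44 to 0.67 after the length correction, with 16 members called higher. The clock list had 13 lower and 3 higher calls, and its median was -0.63. The fatty acid list had 9 lower calls and a median of -0.45 over its 30 members with a length. The pyruvate and citrate cycle list had 6 lower calls and a median of -0.40 over 26 such members. Among the genes above, *Slc8a1* (-2.12, limma adjusted p = 0.00764), *Cd36* (-1.19, limma adjusted p = 0.00918), *Dbp* (-3.75, limma adjusted p = 1.03e-06) and *Nppb* (2.56, limma adjusted p = 0.00313) were called under both settings.

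The transcripts of a gene also moved apart. For *Vwf*, the full-length coding transcript of 8834 bases had 10.0, 14.4 and 8.42 TPM in sham and 3.64, 3.94 and 3.40 TPM in MI prednisone. A processed transcript of 456 bases had 6.55, 4.51 and 0 TPM against 31.4, 28.6 and 22.0 TPM, and a nonsense-mediated decay transcript of 2686 bases had 8.74, 6.63 and 7.99 TPM against 26.6, 26.9 and 15.3 TPM. The gene was thus higher as a sum and lower in its coding transcript, at -1.23 (limma adjusted p = 0.00308) without non-coding classes. For *Col15a1*, a basement membrane collagen called higher at 0.73 (limma adjusted p = 0.00281), the 5172-base transcript had 13.7, 17.0 and 14.7 TPM against 8.08, 6.09 and 9.29 TPM, and the 1755-base transcript 5.94, 2.80 and 1.74 TPM against 28.4, 25.1 and 20.4 TPM. For *Son*, a 2449-base transcript was at or near 0 in sham and at 16.2, 10.3 and 10.6 TPM in MI prednisone, and an 8399-base transcript had 5.21, 8.05 and 5.58 TPM against 0, 0 and 0.394 TPM. For *Cspg4*, a pericyte proteoglycan called higher at 0.85 (limma adjusted p = 0.00603), the difference without non-coding classes was -0.53 (limma adjusted p = 0.0381).

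Retained-intron transcripts held 4.10%, 5.21% and 4.01% of the TPM of protein-coding genes in MI prednisone libraries 1 to 3, and between 2.88% and 3.55% in the other 9. Tested 1 by 1, 4859 of 27769 transcripts were called, 1808 higher and 3051 lower. Leaving out transcripts of non-coding classes gave 361 higher and 1363 lower genes of 12065 tested, of which 1259 calls were shared with the full sums. The parts of transcript length and class in the gene results were not tested beyond these alternatives.

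**Figure D5:**
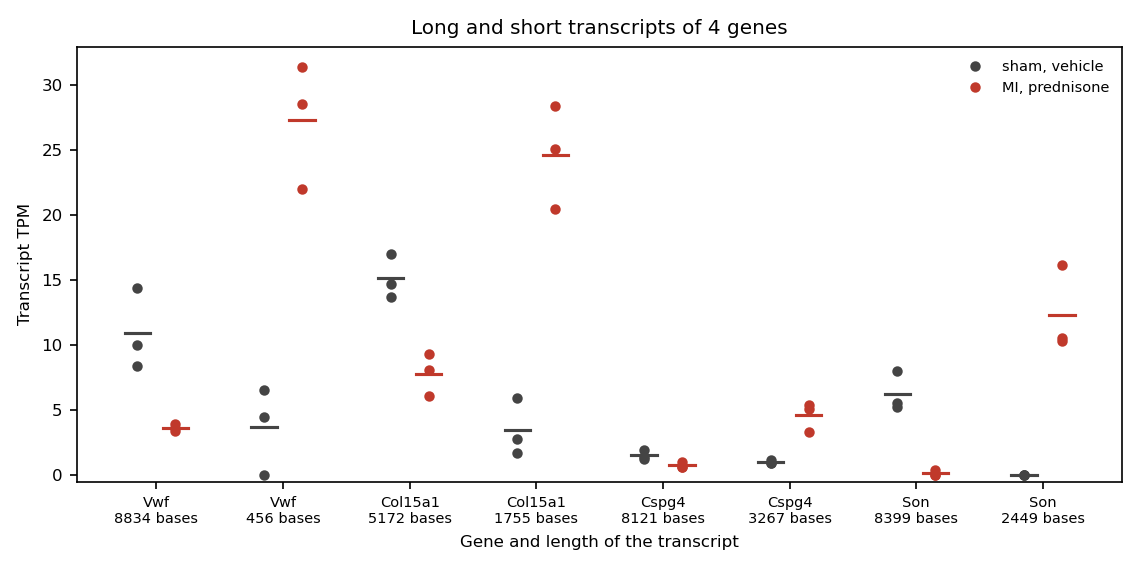
TPM of 2 transcripts each of 4 genes, the most abundant in sham vehicle and the most abundant in MI prednisone, with points for hearts and lines for means of 3. For Vwf, Col15a1, Cspg4 and Son the longer transcript has the lower mean in MI prednisone and the shorter one the higher mean.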

How the data were processed

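Myocardial RNA-seq of 12 mice, 3 in each of 4 groups, was used as a single table of TPM deposited by the authors for 105129 transcripts. Per the submitters' processing notes, Trimmomatic, HISAT2 and kallisto were used with the mm10 build. Their roles, versions, annotation release and use of strand are not given in the sources used here. TPM keeps no read depth, so depth and counting error are unknown and no count model was used. Every library sums to the same total, with 11690 to 14307 genes at 1 TPM or more.

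Groups came from the sample titles. Transcript values were summed by gene symbol (33641 symbols). Genes that reached 1 TPM in 3 or more libraries were tested as log2(TPM + 1) in limma 3.58.1 (R 4.3.3), with 4 group means, an intensity trend, all 12 libraries sharing 1 spread, and Benjamini-Hochberg adjustment; calls are adjusted p under 0.05. On this scale changes of low genes are understated. Intervals are 95% limma intervals, and ratios use group means of TPM. Lengths, classes and gene coordinates are from GENCODE M21 (GRCm38, the build of mm10), which held 94.7% of the transcript rows. The length correction takes each library's log2 deviation from the gene's mean over the 12 libraries. It fits a loess curve (span 0.5) of these deviations against log10 length and subtracts the curve from the log2 values. The scripts were tested on simulated data.

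The comparison, the 33 gene lists and the tests were chosen with earlier results of these data known. Named genes are the 15 largest rises and 15 deepest falls among the calls without overlap between groups and averaging 5 TPM or more (predicted, ribosomal and mitochondrial symbols left out), 32 fixed genes, up to 4 members of each list with the smallest p, and the 10 largest rises and falls of infarcted vehicle against sham vehicle. *Ankrd1*, *Eln*, *Serpinh1*, *Acadm*, *Cpt1b*, *Hk2*, *Slc2a4*, *S100a1*, *Camk2d*, *Hlf*, *Npas2*, *Ciart*, *Per3* and *Ddit3*, list members outside that rule, were chosen after their values were seen.

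Replicate numbers came from the titles, which do not say that they pair mice. Alternatives were another scaling, other filters and pseudocounts, no trend, the 6 libraries alone, a replicate block, removal of mitochondrial rows, length corrections, the most abundant transcript alone and leaving out each library. The leaving out of non-coding classes, 2 further scalings and the list counts without single libraries were added after seeing the data.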

Additional observations from a re-analysis of the deposited data

How the results depend on the processing

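The count of 1578 called genes (472 higher, 1106 lower) ranged from 484 to 2286 when 1 of the 6 compared libraries was left out, the higher calls from 103 to 872 and the lower calls from 360 to 1414. With infarcted vehicle library 3 alone left out, which enters only the shared spread, they were 3392, 1265 and 2127. Median-ratio rescaling gave 2978 calls, 1366 of them higher, and centring alone of genes with a length gave 2578, 1170 of them higher. Removing mitochondrial, nuclear-copy and globin rows gave 3319 calls, 2671 of them lower. Higher calls were 296 with no filter on low genes and 716 with the length correction after median-ratio rescaling.

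Same-numbered hearts deviated together with correlations of -0.109, 0.17 and 0.282, and not every heart correlated best with its own number. The replicate block gave 1265 calls, 304 of them higher, and with the length correction 908 calls, 506 of them lower.

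Sign changes of genes called in neither the main test nor the alternative were not counted. *Col3a1*, for example, ran from -0.06 to 0.34 when 1 of the 6 compared libraries was left out. Of 176 named genes, 6 values changed sign with a call in at least 1 of the 2 settings compared. With the most abundant transcript in place of the sum these were *Col15a1* (-0.88), *Son* (-2.68) and *Vwf* (-1.33), and without non-coding classes *Gpi1* (-0.031), *Vwf* (-1.23) and *Cspg4* (-0.53); both settings leave out transcripts that the sums include. The cause of the other shifts was not tested. Of 113 named genes called, 68 kept the call in each of the 6 fits without 1 compared library. The length correction took 24 named genes out of the calls and brought 5 in. Limits are 3 mice a group, TPM without depth, and surgery and drug that both differ between the groups.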
